A study of Mus musculus with 6 samples.

Results

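Kinesins are motor proteins that move along microtubules or take them apart, and 9 kinesin genes with known tasks in or around cell division are described here: Kif11, Kif14, Kif15, Kif18a, Kif20a, Kif20b, Kif23, Kif24 and Kif2c. They were picked by gene symbol from an RNA sequencing table of 1228 genes of Bv2, a mouse line of immortalised microglia. The OGD/R group holds 3 libraries labelled as glucose oxygen deprivation. Per the protocol, these cells spent 30 min in 100% nitrogen, 2 h at 1% oxygen without glucose or serum, and 24 h back in standard medium, a culture model of ischemia with reperfusion. The control group holds 3 libraries of Bv2 cells labelled as control, and all 6 samples are labelled as wild type. The protocol also names an infection 72 h before the deprivation without saying which samples had it, so infection and OGD/R cannot be told apart if only 1 group had it. Whether replicates came from separate cultures is not stated, and the p-values below cover only the spread among these libraries, which may be technical.

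Values are FPKM, fragment counts scaled by gene length and library size, so levels can be compared between genes. The table was picked for a difference between these same libraries. The ratio of group means nearest to no change was 1.03 on the log2 scale among the 605 genes higher in OGD/R and -0.97 among the 623 lower ones. A call for a single gene is therefore no independent evidence of a response, and each count below stands beside the same count over the table. Steps between low FPKM values matched 8032000 to 8663000 counted units per OGD/R library and 7628000 to 8246000 per control library. Of 20 listed microglial markers 3 were in the table, all low, with Cx3cr1 at 1.77 ± 0.22 FPKM in OGD/R and 0.373 ± 0.15 FPKM in control (SD, n = 3 each). The other 17 are not analysed here, so the table allows little check of the label.

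Each kinesin uses ATP in a conserved motor domain, and in a dividing cell different families share out the work on the spindle. Kif11 and Kif15 push the poles apart, Kif18a and Kif2c control microtubule ends at chromosomes, and Kif14, Kif20a, Kif20b and Kif23 act at the central spindle and midbody, where the daughter cells separate. Kif24, a relative of Kif2c, sits at centrioles and restrains the growth of cilia. Transcripts of most of these motors build up late in the cell cycle and are low in resting cells. In a bulk sample a larger share of dividing cells cannot be told apart from more transcript per cell.

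All 9 kinesins rose in OGD/R, by 2.12-fold to 2.76-fold as ratios of mean FPKM. In the test across the table (limma on log2(FPKM + 1), adjusted over 852 genes with a mean of at least 1 FPKM), 9 of 9 were higher at an adjusted p under 0.05, beside 46.6% of all genes tested (97.3% passed in either direction). In 9 of 9 the 3 OGD/R values lay above the 3 control values, beside 46.2% of the genes tested. Their median log2 fold change was 0.99, against -0.68 over all genes tested and 1.04 over the tested genes higher in OGD/R. The summed level of the 9 genes was 152, 155 and 148 FPKM in OGD/R libraries, against 63.6, 63.0 and 66.4 FPKM in control libraries. Within each group the sums lay close together, far from those of the other group.

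**Figure D1:**
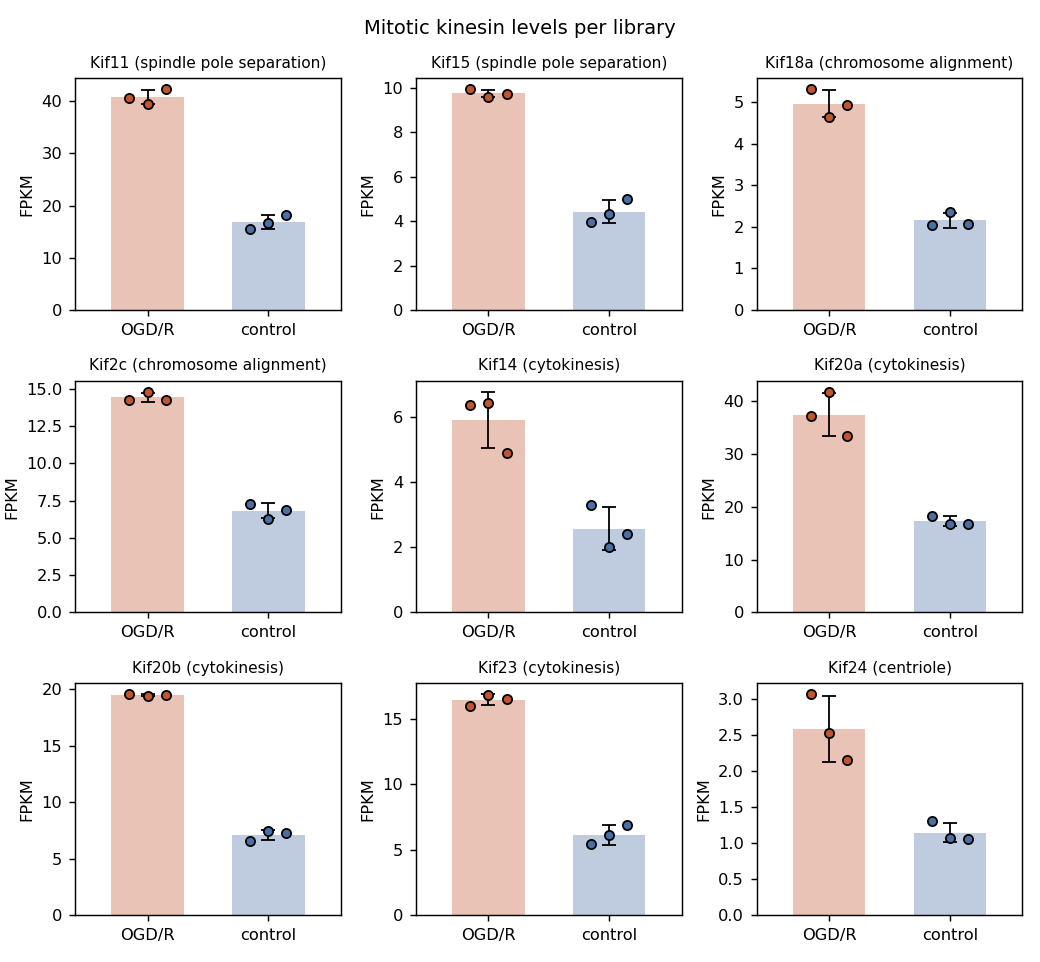
FPKM of the 9 kinesins, with OGD/R left and control right in each panel. Points are libraries, bars are means from 0 and error bars are SD (n = 3 each). In all 9 panels the OGD/R points lie above the control points. The smallest gap in FPKM is that of Kif24, at 2.15 FPKM for the lowest OGD/R library and 1.30 FPKM for the highest control library. Relative to level, the groups come closest in Kif14, at 4.90 FPKM and 3.29 FPKM for the same libraries.

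Promoters of many mitotic genes carry a short element named CHR, the cell cycle genes homology region, near the start of transcription, often with an NF-Y box (CCAAT) upstream. Windows of 250 bases before to 50 bases after the start were taken from RefSeq (GRCm38.p6) for 8 of the 9 members; Kif20a had no entry. Searched on both strands were CCAAT, the CHR form written TTTGAA, its variant forms written TTCGAA or with a changed middle as TTTAAA, the E2F-type box written TTCGCGC, plus the E2F-type box with the letters TTGGCGC. No matches within a member overlapped each other. TTTGAA was found in 6 of 8 members, beside 17.9% of 32851 windows of the same length. CCAAT was found in 4 of 8, beside 37.4%, and TTGGCGC in 2 of 8, beside 2.45%. TTTAAA was found in 2 of 8, beside 13.2%, TTCGAA in 1 of 8, beside 1.56%, and TTCGCGC in 0 of 8, beside 1.59%. Over 316 windows of other genes called higher in the table, TTTGAA was found in 23.7%, CCAAT in 49.7% and TTGGCGC in 5.7%. In the same windows TTTAAA was found in 12.3%, TTCGAA in 4.75% and TTCGCGC in 3.16%.

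In 5 members a match to TTTGAA, or to the variant TTCGAA, lay within bases -40 to 20 of the start, a range taken after the positions were seen, and 3.29% of all windows had such a match. The same range held one in 9.49% of 316 windows of other genes called higher in the table and in 1.11% of 359 windows of genes called lower. These 5 are printed because their matches lie at the start, and Kif18a, whose TTGGCGC match lies there, is shown beside them. Each line runs 5′ to 3′ on the gene's strand from base -100 to base 25, counting the start as 1, with matches in capitals. A capital run that is none of the searched words is one of them on the opposite strand, except in Kif20b, where a pair of TTTGAA matches adjoin. The stretches on the plus strand are chr19:37376282-37376406 (Kif11), chr9:122950981-122951105 (Kif15), chr19:34922258-34922382 (Kif20b) and chr2:109280638-109280762 (Kif18a). Those on the minus strand are chr9:61946775-61946899 (Kif23) and chr4:41464824-41464948 (Kif24).
Kif11: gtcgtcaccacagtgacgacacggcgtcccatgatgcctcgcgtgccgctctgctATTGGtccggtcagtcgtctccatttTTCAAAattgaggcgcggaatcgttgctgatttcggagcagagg
Kif15: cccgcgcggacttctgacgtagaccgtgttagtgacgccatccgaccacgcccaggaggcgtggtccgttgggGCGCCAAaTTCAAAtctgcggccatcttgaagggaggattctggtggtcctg
Kif20b: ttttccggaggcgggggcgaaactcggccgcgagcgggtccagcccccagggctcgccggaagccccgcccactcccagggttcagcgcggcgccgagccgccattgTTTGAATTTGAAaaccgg
Kif23: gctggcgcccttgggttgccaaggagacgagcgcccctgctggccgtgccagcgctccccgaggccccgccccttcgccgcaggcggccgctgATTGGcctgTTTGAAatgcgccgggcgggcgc
Kif24: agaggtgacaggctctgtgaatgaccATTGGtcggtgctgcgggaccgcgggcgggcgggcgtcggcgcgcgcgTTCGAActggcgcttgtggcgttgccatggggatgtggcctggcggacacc
Kif18a: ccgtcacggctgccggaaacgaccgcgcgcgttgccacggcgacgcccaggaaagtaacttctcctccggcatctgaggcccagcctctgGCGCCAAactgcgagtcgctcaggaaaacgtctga
The matches in Kif11 and Kif15 stand at the same distance, bases -19 to -14, and both lie on the opposite strand. Kif20b has a pair of TTTGAA matches end to end, at bases 8 to 19, and Kif23 has one at bases 3 to 8 that follows a CCAAT match at bases -7 to -3. In Kif11 the CCAAT match lies farther upstream, at bases -45 to -41. Kif24 has TTCGAA at bases -26 to -21 below 4 CCAAT matches, of which the nearest is at bases -74 to -70. In Kif14 as well as Kif2c, GENCODE M21 places its farthest upstream start 1505 and 3867 bases before the RefSeq one. Its nearest starts lie 87 and 28 bases from the RefSeq one. Which start is used in Bv2 cells was not tested, so the windows of Kif14 and Kif2c may not be the ones used. A match is a description of letters, not a bound site.

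**Figure D2:**
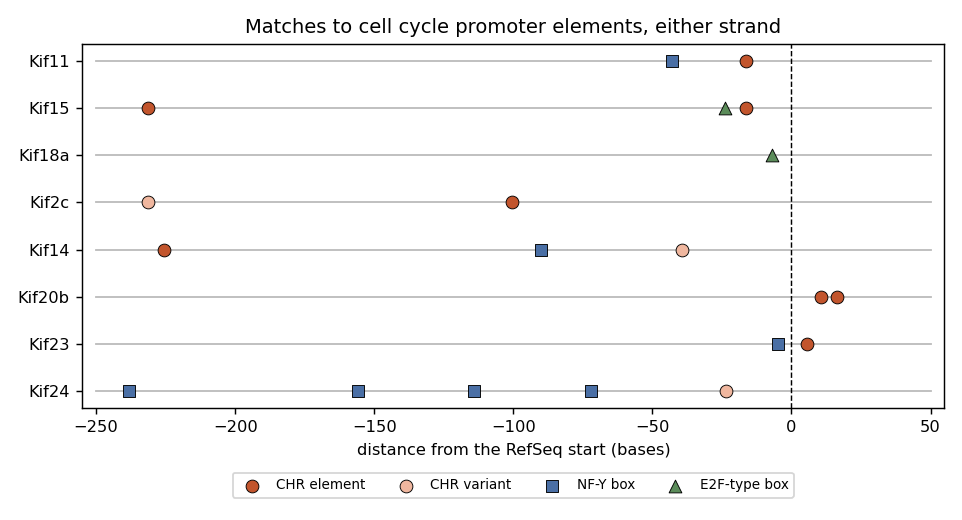
Matches to 3 kinds of promoter element in 8 kinesin genes, by distance in bases from the RefSeq start (dashed line). Symbols mark the middle of each match on either strand; circles are CHR-type (pale for the variants), squares NF-Y boxes and triangles E2F-type boxes. In 5 of the 8 genes, all but Kif14, Kif18a and Kif2c, a match to TTTGAA, or to the variant TTCGAA, lies between bases -40 and 20.

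Both motors that separate the spindle poles rose. Kif11 (ENSMUSG00000012443, GRCm38 chromosome 19, 37376403 to 37421859), also called Eg5, is a tetramer that crosslinks antiparallel microtubules and slides them apart. Kif11 had 40.54, 39.48 and 42.24 FPKM in OGD/R, against 15.46, 16.74 and 18.15 FPKM in control. The lowest OGD/R library stood 21.3 FPKM above the highest control library, the widest gap in FPKM among the 9 genes. Relative to level, these libraries lay farther apart in Kif20b (19.44 against 7.41 FPKM) and Kif23 (16.04 against 6.92 FPKM). For Kif11 the difference as log2(FPKM + 1) was 1.23 ± 0.10 SE (limma, adjusted p = 0.00011), and the ratio of mean FPKM was 2.43. Kif15 (ENSMUSG00000036768, chromosome 9, 122951046 to 123018733) is brought to the spindle by Tpx2 and can take over part of the work of Kif11. It had 9.92, 9.57 and 9.73 FPKM in OGD/R, against 3.97, 4.31 and 4.97 FPKM in control. The groups did not overlap, and the control libraries were the more spread, with a coefficient of variation of 11.5% against 1.80% in OGD/R. Its log2 fold change was 0.99 ± 0.11 SE (limma, adjusted p = 0.00022) and its ratio 2.21. After GC content and exon length were regressed out of each library, the log2 fold change of Kif11 was 0.68 and that of Kif15 was 0.43 (limma, adjusted p = 0.0018 and 0.014). The FPKM ratio of Kif11 to Kif15 was 4.18 in OGD/R and 3.81 in control as geometric means, and did not overlap between the groups.

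The motors that act on microtubule ends at chromosomes rose by similar amounts. Kif18a (ENSMUSG00000027115, chromosome 2, 109280738 to 109341747) damps the swings of chromosomes as they line up. Kif18a had 5.31, 4.65 and 4.94 FPKM in OGD/R, against 2.04, 2.36 and 2.08 FPKM in control. All 3 OGD/R values lay about as far apart as the control values did in relative terms, with coefficients of variation of 6.66% and 8.07%. Its log2 fold change was 0.92 ± 0.10 SE (limma, adjusted p = 0.00026) and the ratio 2.30. The call of Kif18a ended under that regression, with a log2 fold change of 0.08 (limma, adjusted p = 0.54, range over the settings tried 5.7e-05 to 0.54). Its longest transcript is 38.2% GC, the lowest of the 9, and its exons span 9832 bases. Tested protein-coding genes higher in OGD/R were longer and poorer in GC (medians 4807 bases and 45.9%) than lower ones (3369.5 bases and 53.5%), and how much of the regressed part belongs to OGD/R was not tested.

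Kif2c (ENSMUSG00000028678, chromosome 4, 117159639 to 117182639), also called MCAK, does not walk but peels tubulin from microtubule ends, which helps to undo wrong attachments at centromeres. Its levels were 14.24, 14.78 and 14.23 FPKM in OGD/R and 7.27, 6.28 and 6.88 FPKM in control. This gave a log2 fold change of 0.98 ± 0.10 SE (limma, adjusted p = 0.00016). Its ratio of 2.12 was the lowest of the 9 genes and its groups did not overlap. Unlike Kif18a, it kept nearly the same fold change with GC content and length regressed out, at 0.99 (limma, adjusted p = 0.00015); whether the 2 genes differ in this was not tested.

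**Figure D3:**
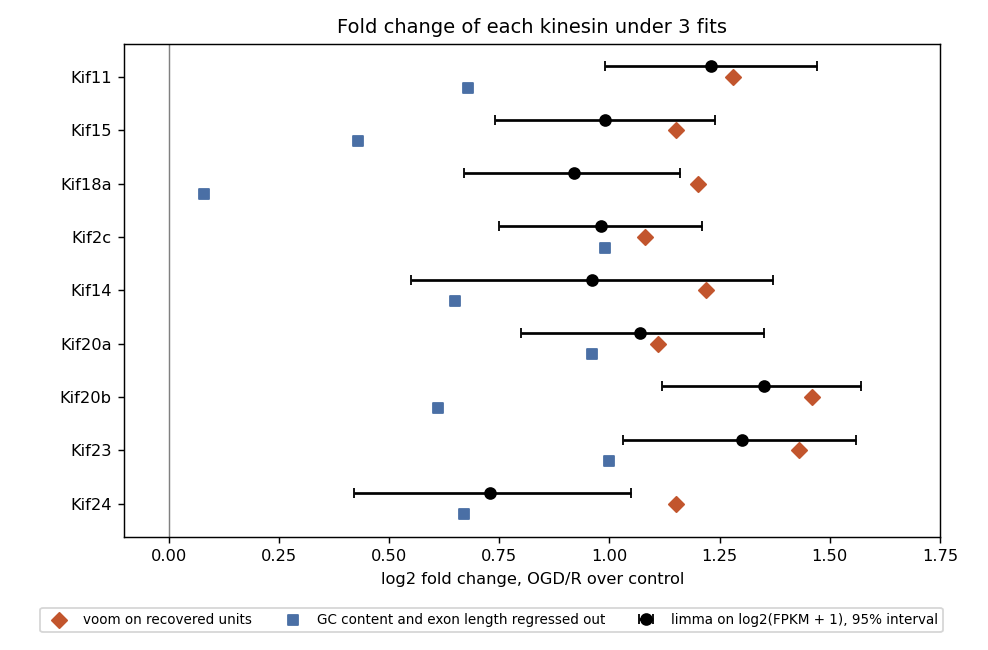
Log2 fold change of each kinesin, OGD/R over control, on the horizontal axis. Black points are limma on log2(FPKM + 1) with 95% intervals, diamonds are voom on recovered units, and squares are limma after GC content and exon length were regressed out. The black points run between 0.73 for Kif24 and 1.35 for Kif20b, and the square of Kif18a, at 0.08, lies nearest to 0.

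The cytokinesis motors included both the highest ratios. Kif20b (ENSMUSG00000024795, chromosome 19, 34922361 to 34975745), a motor of the family of Kif20a and Kif23 that helps the final cut between daughter cells, had 19.56, 19.44 and 19.48 FPKM in OGD/R. Its control values were 6.54, 7.41 and 7.27 FPKM. The OGD/R libraries lay closer together than counting alone would give, with a coefficient of variation of 0.313% beside 2.96% for the recovered number of units, if a unit is a read pair. Its log2 fold change was 1.35 ± 0.09 SE (limma, adjusted p = 7.9e-05) and the ratio 2.76. With GC content and length regressed out it was 0.61 (limma, adjusted p = 0.0021). Kif23 (ENSMUSG00000032254, chromosome 9, 61915905 to 61946774) is the motor subunit of centralspindlin, the complex that bundles midzone microtubules. Kif23 had 16.04, 16.88 and 16.53 FPKM in OGD/R, against 5.40, 6.09 and 6.92 FPKM in control. The highest control library reached less than the lowest OGD/R library by 9.12 FPKM. Kif23 had a log2 fold change of 1.30 ± 0.11 SE (limma, adjusted p = 0.00012) and the ratio 2.69.

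Kif20a (ENSMUSG00000003779, chromosome 18, 34624613 to 34633277), which carries the chromosomal passenger complex to the central spindle, had 37.14, 41.75 and 33.50 FPKM in OGD/R and 18.32, 16.77 and 16.68 FPKM in control. Here the OGD/R libraries were the more spread, at 37.5 ± 4.13 FPKM against 17.3 ± 0.922 FPKM (SD, n = 3 each), and still did not reach the control values. For Kif20a the log2 fold change was 1.07 ± 0.11 SE (limma, adjusted p = 0.00022) and the ratio 2.17. Of the 4338 exon bases of Kif20a, 1271 overlap exons of Cdc23 on the opposite strand, and no source used here says if strand was used in counting, so reads of Cdc23 and Kif20a cannot be told apart there. Kif14 (ENSMUSG00000041498, chromosome 1, 136466343 to 136531511), which binds Prc1 and citron kinase at the midbody, had 6.37, 6.42 and 4.90 FPKM in OGD/R. Its control values were 3.29, 2.00 and 2.40 FPKM, with control replicate 1 the highest and OGD/R replicate 3 the lowest of its group. The log2 fold change of 0.96 ± 0.17 SE had the widest error of the 9 genes (limma, adjusted p = 0.0017), and the ratio was 2.30.

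Kif24 (ENSMUSG00000028438, chromosome 4, 41390745 to 41464887) was the lowest of the 9, with 3.06, 2.52 and 2.15 FPKM in OGD/R and 1.30, 1.07 and 1.06 FPKM in control. These levels rest on about 197, 171 and 149 units in OGD/R libraries and 80, 71 and 65 in control libraries, the fewest of the set. Kif11, at the other end, had 2429 to 2730 units in OGD/R and 884 to 1033 in control. The log2 fold change of Kif24 was 0.73 ± 0.13 SE (limma, adjusted p = 0.0018), and its ratio was 2.25. The lower fold change beside a ratio like that of the other members comes with the pseudocount of 1, which shrinks low genes. On recovered units it was 1.15 (voom in limma, adjusted p = 0.00070). Stil, which starts the building of new centrioles and was the only other gene on the list around Kif24 in the table, rose to 9.42 ± 1.54 FPKM in OGD/R, against 4.63 ± 0.575 FPKM in control (SD, n = 3 each). The other 27 genes of that list are not analysed here.

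The order of levels was nearly the same in both groups. In OGD/R it ran Kif11, Kif20a, Kif20b, Kif23, Kif2c, Kif15, Kif14, Kif18a and Kif24, and the ranges of neighbours overlapped for Kif11 with Kif20a and for Kif14 with Kif18a. In control Kif20a stood before Kif11 and Kif2c before Kif23. There the ranges overlapped between Kif20a and Kif11, Kif20b and Kif2c, Kif2c and Kif23, and Kif14 and Kif18a. The FPKM ratio of Kif11 to Kif20a overlapped between the groups. That of Kif23 to Kif2c did not, with geometric means of 1.14 in OGD/R and 0.898 in control, where 1 library also had Kif23 above Kif2c. Kif11 and Kif20a together made up 51.0% to 52.2% of the summed FPKM of the 9 genes in OGD/R libraries and 52.4% to 53.2% in control libraries.

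Ratios between pairs of members show how evenly they moved. Of 36 pairs, 10 had FPKM ratios that did not overlap between OGD/R and control (27.8%), beside 22.9% of the 75078 pairs among genes called higher in the table, so the members' share lies near that of the table. With 3 libraries a group the smallest exact two-sided permutation p is 0.10, so no pair can reach 0.05. Kif20b was in 5 of the 10 pairs. Its FPKM ratio to Kif20a, a motor of the same family, was 0.527, 0.466 and 0.581 in OGD/R, against 0.357, 0.442 and 0.436 in control. The ratio of Kif20b to Kif23 changed by 0.03 on the log2 scale and overlapped between the groups. The widest change was that of Kif20b to Kif2c, at 0.38 on the log2 scale, with ratios of 1.35 in OGD/R and 1.04 in control. This order depends on the processing. With GC content and exon length regressed out, the log2 fold change of Kif20b was 0.61. That is below Kif14 (0.65), Kif24 (0.67), Kif11 (0.68), Kif20a (0.96), Kif2c (0.99) and Kif23 (1.0), and above only Kif15 (0.43) and Kif18a (0.08). Pair ratios were not taken in that setting.

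**Figure D4:**
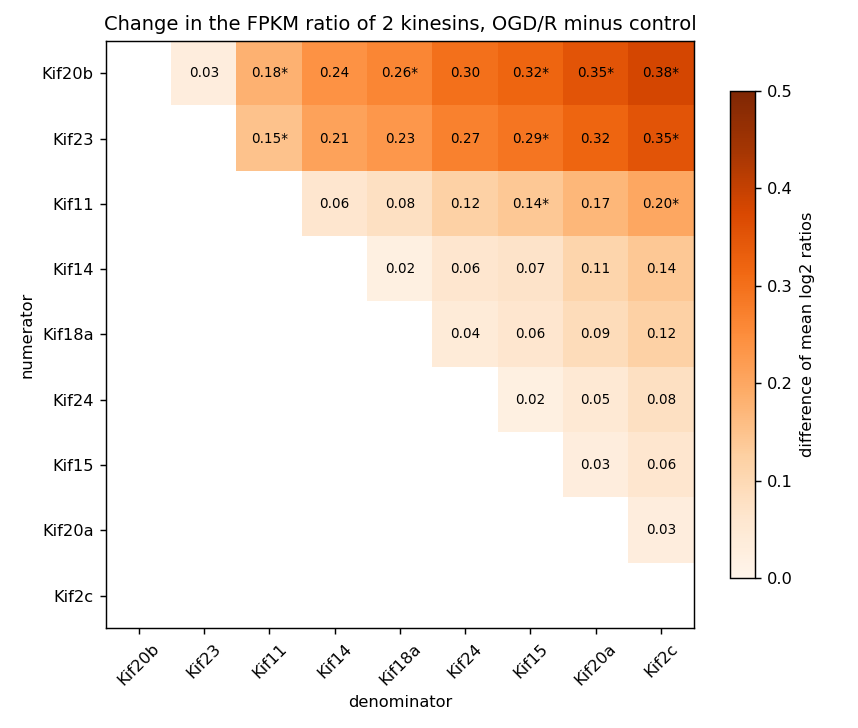
Difference between OGD/R and control in the mean log2 FPKM ratio of 2 kinesins, row over column. Rows and columns are ordered by the ratio of mean FPKM, OGD/R over control. An asterisk marks the 10 pairs whose ratios did not overlap between the groups. The rows of Kif20b and Kif23 hold 8 of the 10, and the values run up to 0.38.

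Within a group the 9 genes did not move as one. Deviations from the group mean, on log2(FPKM + 1) over the 6 libraries, correlated between members at a median of -0.25, with 16 of 36 pairs above 0. Over pairs of tested genes higher in OGD/R the median was 0.00 and 50.1% were above 0. These values rest on 6 libraries that share depth and preparation and are given as a description. Kif11, Kif15 and Kif23 shared a direction in control, each lowest in replicate 1 and highest in replicate 3. Kif14, Kif20a, Kif24 and Kif2c were each highest in control replicate 1.

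Among the 584 genes with a higher mean in OGD/R and control values above 0, 7 of the 9 kinesins stood in the lower part by ratio. Kif20b ranked 268 and Kif23 288 of 584, just above the middle, the others ranked between Kif11 at 370 and Kif2c at 532, and the median log2 ratio was 1.20 over the 9 genes against 1.42 over the 584. By mean level they were spread out, with Kif11 at rank 35 and Kif20a at rank 39 of 399 tested genes with a higher mean, and Kif14 at 208, Kif18a at 230 and Kif24 at 329. The 2 other kinesins in the table, neither tied to mitosis, were close to the floor and below the minimum for the test. Kif26b, which acts in cell adhesion and carries no active motor, had 0.39, 0.41 and 0.32 FPKM in OGD/R and 0.28, 0.11 and 0.13 FPKM in control. That is 41 to 51 units in OGD/R and 13 to 32 in control, and 909 exon bases of Kif26b overlap the antisense gene Gm16564. Kif5a, a carrier of cargo along axons in neurons, was listed at 0 in all OGD/R libraries and had 0.06, 0.10 and 0.04 FPKM in control, or 2 to 6 units. Without the minimum both were called, Kif26b at a log2 fold change of 0.23 and Kif5a at -0.09 (limma, adjusted p = 0.019 and 0.047), beside 96.0% of all 1228 genes. Of 45 listed genes of the kinesin superfamily 11 were in the table, and the other 34 are not analysed here.

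**Figure D5:**
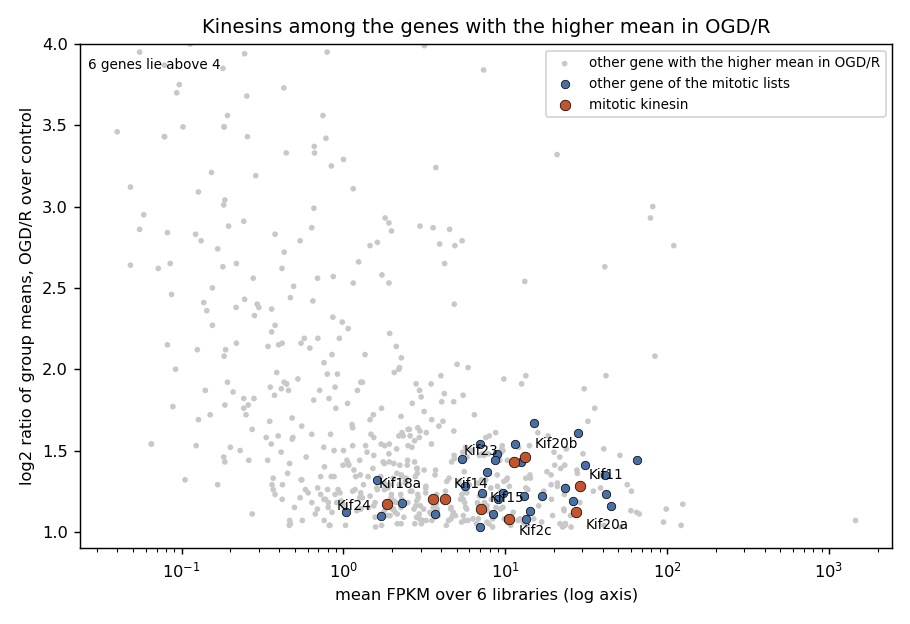
Log2 ratio of group means, OGD/R over control, against mean FPKM over 6 libraries (log axis) for genes with the higher mean in OGD/R and control values above 0. The 9 kinesins lie between 1.08 and 1.46, among the other listed mitotic genes at 1.03 to 1.67, and 6 genes lie above the axis.

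Other genes of mitosis moved the same way. Of 190 genes on 7 mitotic lists that are not members, 32 were in the table, and 32 of 32 rose, beside 46.6% of the genes tested; the remaining 158 are not analysed here. After regression on GC content and length 30 of the 32 were called, without Mybl1 (given below) and the kinase Mastl, named after its values were seen, at 0.23 (limma, adjusted p = 0.10, range over the settings 0.00014 to 0.10). The median log2 fold change of the 32 in the main fit was 1.14, against -0.68 over all genes tested and 1.04 over the tested genes higher in OGD/R. Of the partners of the cytokinesis motors, 4 of 4 tested rose. Cep55, a scaffold of the midbody, had 17.2 ± 2.95 FPKM in OGD/R and 5.92 ± 0.552 FPKM in control (SD, n = 3 each). Prc1, which bundles midzone microtubules, had 12.5 ± 0.436 FPKM in OGD/R and 5.46 ± 0.575 FPKM in control. Ect2, a partner of centralspindlin, and Cit, citron kinase, rose with log2 fold changes of 1.05 and 0.66.

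Each count here stands beside the same 46.6% of tested genes called higher. Of spindle assembly genes 8 of 8 tested rose, with Hmmr at 1.55, Ckap2l at 1.21, Nusap1 at 1.14 and the kinase Aurka at 1.14 on the log2(FPKM + 1) scale. Of kinetochore and checkpoint genes 8 of 8 rose, with the centromere histone Cenpa at 1.53, the checkpoint kinase Bub1b at 1.35, and Bub1 and Cenpf at 1.32 each. Bub1 is also on the list of the chromosomal passenger complex and shugoshin, where it and Sgo2a, a protector of centromeric cohesion, were 2 of 2 tested, both higher. Of mitotic cyclins, kinases and markers 7 of 7 rose, among them Mki67, Ccna2, Top2a and Fbxo5 at 1.43, 1.19, 1.13 and 1.13. Of regulators of cell cycle transcription 3 of 3 rose, with the repressor E2f8 at 1.27, the kinase Melk at 0.99 and Mybl1 at 0.79. Mybl1 alone reversed with GC content and length regressed out, at -0.07 (limma, adjusted p = 0.62, range over the settings tried 0.00073 to 0.62). Of 41 listed tubulins and microtubule-associated proteins 4 were in the table, and the other 37 are not analysed here. The 3 tested were higher, beside 46.6% of all genes tested: Tubb6 at 1.16, Tuba1c at 1.13 and Tubb4b at 1.03. All 3 have close paralogs that counting could confuse. Tubb3, below the minimum for the test, went the other way. It had 0.19 ± 0.185 FPKM in OGD/R and 0.787 ± 0.334 FPKM in control (SD, n = 3 each). No light chain of kinesin, dynein or dynactin gene of the 37 listed was in the table, and these are not analysed here.

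Among 600 other protein-coding genes tested, the 5 with a profile over the 6 libraries nearest to the median profile of the members were Ncapg2, Pds5b, Ttk, Cd38 and Rbbp6. Likeness is the root mean square difference of log2(FPKM + 1) centred on each gene's mean, and was 0.00943, 0.0410, 0.0495, 0.0524 and 0.0552 for these genes, against a median of 0.168 over genes higher in OGD/R. Ncapg2, a subunit of condensin II, had 31.95, 32.87 and 30.43 FPKM in OGD/R and 14.73, 13.85 and 14.92 FPKM in control. It lay nearer to the median profile than any member did; of the members Kif2c was nearest at 0.0585 and Kif24 farthest at 0.195. Cd38, an enzyme of NAD breakdown on the cell surface, had 9.51, 9.26 and 9.37 FPKM in OGD/R and 4.26, 4.12 and 4.15 FPKM in control. The call of Rbbp6 ended with GC content and length regressed out, at a log2 fold change of 0.03 (limma, adjusted p = 0.78, range 2.1e-05 to 0.78).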

How the data were processed

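RNA from 6 Bv2 libraries was sequenced as paired reads of 150 nt from 1 μg of RNA each, per the labels' protocols. The deposited values are FPKM, per the file headers, printed to 2 decimals for 1228 genes. The submitters' processing notes name the build GRCm38. Aligner, counting tool, annotation and the rule of gene choice: not given in the sources used here. Gene IDs were matched to GENCODE M21 (1227 of 1228), which gave positions, exon lengths and GC content of the longest transcript, and 2 names turned into dates were restored.

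Genes with a mean of at least 1 FPKM (852) entered limma 3.58.1 (R 4.3.3) as log2(FPKM + 1) (group only, eBayes with trend, two-sided, Benjamini-Hochberg over the 852 genes, threshold 0.05). The pseudocount of 1 understates the change of low genes. The fit was tested on simulated data in which most genes did not change, unlike here, where 97.3% of tested genes were called. That test does not show how many calls here are false. Counted units came from the library size that made values under 15 units whole, given exon lengths. Within rounding error plus 0.03 units 97.2% to 100% of values were whole. At other sizes at least 3% off the highest share was 26.8% to 30.0%, and chance gives 18.8% to 20.2%. Counting coefficients of variation cover counting error only, while limma's intervals rest on the spread among libraries. Other steps used Python 3.11.15, pandas 2.3.3, numpy 2.4.6 and matplotlib 3.10.9.

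The members, the gene lists and the tests were chosen with earlier results of these data known. Named genes are all members, Kif5a, Kif26b, up to 4 called non-members with the largest fold change from each list, and the 5 nearest profiles, without symbols of the Gm, Rik or -ps kind. Planned protein features were not analysed here. Listed genes below the minimum are given as values. Alternatives were the pseudocount (0.1 and 0.01), the filter (none and 5 FPKM), equal medians and median-of-ratios scaling, eBayes without trend or robust, a replicate block, each library left out, voom on recovered units, and GC content with exon length regressed out.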

Additional observations from a re-analysis of the deposited data

How the results depend on the processing

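The count of kinesins called higher was 9 in the fit reported and 9 in each setting run except a filter at 5 FPKM, which tested and called 6, and the regression on GC content and length, which called 8. There the log2 fold change of Kif18a was 0.08, below the threshold; this setting also moves the median over all tested genes to -0.13, against -0.68, and that over the members to 0.67, against 0.99, with Kif15 at 0.43 and Kif11 at 0.68. Median-of-ratios scaling moved that median to -0.40 and the members' median to 1.38. Over the settings run, members other than Kif18a kept direction and call where tested (the filter at 5 FPKM left out Kif14, Kif18a and Kif24). Without any 1 library their fold changes reached 0.64 at the lowest (Kif24) and 1.38 at the highest (Kif20b and Kif23). Without the filter, Kif26b and Kif5a were called at log2 fold changes of 0.23 and -0.09 (limma, adjusted p = 0.019 and 0.047), beside 96.0% of 1228 genes; other settings kept the filter and gave them no test. The table held 829 called genes, 397 higher and 432 lower, and with a filter at 5 FPKM 409, 188 higher and 221 lower, of 423 tested. Of 36 other named genes 33 kept direction and call. Mybl1 reversed (-0.07) and Rbbp6 lost its call (0.03) with GC content and length regressed out. P2ry13 lost its call (-0.31) with median-of-ratios scaling. Mastl, not among the 36 and named after its values were seen, also lost its call (0.23) with GC content and length regressed out. Fewer genes tested accounts for the lower counts of the stricter filter; no other cause was tested. With a replicate block 9 kinesins and 835 genes in all were called. Libraries with the same number had deviations that correlated at 0.428, -0.349 and 0.375. Of 6 libraries, 2 correlated best with their own number. With 3 libraries a group, these values cannot tell whether the numbers pair the libraries.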

Other observations

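Genes that hold back or open the cell cycle did not all move with the kinesins. Of 23 listed inhibitors and G1 cyclins 5 were tested, and 4 rose and 1 fell, beside 46.6% called higher and 50.7% called lower over the table. Gadd45a, a stress gene that slows entry into mitosis, fell to 3.64 ± 1.96 FPKM in OGD/R, against 19.5 ± 7.47 FPKM in control (SD, n = 3 each; limma, log2 fold change -2.14 ± 0.39 SE, adjusted p = 0.0019). Cdkn3, a phosphatase of cyclin-dependent kinases, and Ccne1, cyclin E1, rose with log2 fold changes of 1.05 and 0.99. Ccng2, a cyclin linked to arrest, rose as well, to 6.20 ± 1.52 FPKM in OGD/R, against 2.51 ± 0.276 FPKM in control.

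Of markers of other brain cell types, Tubb3 of neurons had 0.19 ± 0.185 FPKM in OGD/R and 0.787 ± 0.334 FPKM in control, and Cspg4 of oligodendrocyte precursors 0.02 ± 0.0173 FPKM in OGD/R and 0.0867 ± 0.00577 FPKM in control (SD, n = 3 each). Neither was tested. Of the microglial markers Cx3cr1 was called higher. P2ry13 was called lower, at a log2 fold change of -0.53 (limma, adjusted p = 0.011), a call that ended with median-of-ratios scaling at -0.31 (adjusted p = 0.18, range over the settings 0.0026 to 0.18), while P2ry12, below the minimum, had 1.25 ± 0.324 FPKM in OGD/R and 0.53 ± 0.108 FPKM in control. Vwf, a marker of endothelium, fell to 1.44 ± 0.321 FPKM in OGD/R, against 3.66 ± 0.645 FPKM in control (limma, adjusted p = 0.0012). Their part in the kinesin results was not tested.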
